A study of Mus musculus with 4 samples.

Results

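Elastic fibres are the part of the extracellular matrix that lets lung tissue stretch and recoil. Here they were followed through 10 genes, taken by name from the deposited table of 17691 genes: Eln, Fbn1, Fbn2, Fbln1, Fbln2, Fbln5, Efemp2, Emilin1, Mfap4 and Mfap5. All 10 were found, each in 1 row. They were measured by RNA sequencing of whole lung from wild type C57BL/6 mice aged 6 to 8 weeks, which had received bleomycin or PBS intranasally and were treated for 10 days. Bleomycin breaks DNA strands and is given to mice to injure and scar the lung, and PBS is the buffer given to the control mice. There were 2 libraries per group, called PBS 1 and 2 and bleomycin 1 and 2 after their titles. By the labels 4 groups were treated, and by the series description sequencing was in triplicate, while 4 libraries in 2 groups were analysed here. The labels do not say that the libraries of a group came from separate animals, so the p-values rest on the spread of these samples alone, and that spread may be technical. Values are FPKM, that is fragments per kilobase of transcript, scaled to the mapped fragments of the library, so levels of different genes can be compared per length. In whole tissue, fewer cells of a type and less RNA per cell cannot be told apart.

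An elastic fibre has a core of cross-linked elastin laid down on a scaffold of microfibrils. Tropoelastin, the soluble product of Eln, is secreted by fibroblasts, smooth muscle and other mesenchymal cells. Fibrillins, encoded by Fbn1 and Fbn2, form the microfibrils, and microfibril-associated glycoproteins bind to them. Fibulins and emilins guide tropoelastin to the scaffold, and lysyl oxidases then cross-link it. In the lung most elastin is made while alveoli form, and little is made in the healthy adult.

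The libraries were similar in size. From the step that single fragments leave in low FPKM values, depth was estimated at 17000000 to 17800000 fragments per library. Defining markers of lung epithelium were present in every library, with Sftpc at 7913 to 12788 FPKM. Replicate libraries differed by a median of 0.16 with bleomycin and 0.09 with PBS on the log2(FPKM + 1) scale over the 12986 genes tested. The Y-linked gene Eif2s3y had 26.43 and 28.86 FPKM in the PBS libraries, while both bleomycin libraries had it at 0, so treatment and this sex-linked difference cannot be told apart in any comparison below. Hepatocyte transcripts were also lower with bleomycin, 9 of 9 tested having fallen by the test given below, beside 7.69% of all tested genes. Their summed level was 126.5 and 120.1 FPKM in the PBS libraries against 12.48 and 8.71 FPKM after bleomycin. The part of either in the results was not tested.

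Promoter sequences in the RefSeq table (GRCm38.p6) matched 6 of the 10 genes. Eln, Fbn2, Mfap4 and Mfap5 had no entry. The windows of 4 genes are shown because they stand for different behaviours described further on. Fbn1 rose and was higher in bleomycin 2, Emilin1 and Efemp2 rose by similar amounts in both bleomycin libraries, and Fbln1 was lowest in bleomycin 2. Each window runs 5′ to 3′ in the direction of the gene, from 250 bases before to 50 bases after a start site. They lie at chr2:125506389-125506688 (minus strand, Fbn1), chr5:30913536-30913835 (plus strand, Emilin1), chr19:5473696-5473995 (plus strand, Efemp2, the first of 3 entries) and chr15:85205699-85205998 (plus strand, Fbln1, the first of 2 entries). Capitals mark matches on either strand to GGGCGG (GC box) and CAGAC (the core of the SMAD-binding element).
Fbn1: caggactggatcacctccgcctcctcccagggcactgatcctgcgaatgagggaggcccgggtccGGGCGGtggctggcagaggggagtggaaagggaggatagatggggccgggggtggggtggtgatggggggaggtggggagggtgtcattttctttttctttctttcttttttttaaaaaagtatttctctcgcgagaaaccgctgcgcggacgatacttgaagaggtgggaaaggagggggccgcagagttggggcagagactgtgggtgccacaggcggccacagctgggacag
Emilin1: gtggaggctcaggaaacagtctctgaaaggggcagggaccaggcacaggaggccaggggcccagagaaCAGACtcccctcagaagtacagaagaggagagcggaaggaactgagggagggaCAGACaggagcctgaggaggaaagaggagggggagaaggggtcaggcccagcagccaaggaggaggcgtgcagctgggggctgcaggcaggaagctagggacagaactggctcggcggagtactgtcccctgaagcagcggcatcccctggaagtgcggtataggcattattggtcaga
Efemp2: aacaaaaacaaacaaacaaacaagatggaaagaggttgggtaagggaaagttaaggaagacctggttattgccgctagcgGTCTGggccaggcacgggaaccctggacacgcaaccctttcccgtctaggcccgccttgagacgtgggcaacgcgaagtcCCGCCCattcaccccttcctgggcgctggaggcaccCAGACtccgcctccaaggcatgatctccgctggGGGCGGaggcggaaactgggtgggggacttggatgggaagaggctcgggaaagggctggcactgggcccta
Fbln1: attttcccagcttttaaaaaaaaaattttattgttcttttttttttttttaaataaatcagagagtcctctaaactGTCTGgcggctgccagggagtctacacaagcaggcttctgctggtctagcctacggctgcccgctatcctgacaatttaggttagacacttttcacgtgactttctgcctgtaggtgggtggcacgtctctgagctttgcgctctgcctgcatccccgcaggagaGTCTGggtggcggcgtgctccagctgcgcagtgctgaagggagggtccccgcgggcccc

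The Fbn1 window held 1 GC box, at position -185 from the start site, and no CAGAC. The Emilin1 window held 2 CAGAC matches, at -182 and -129, and no GC box. In the Efemp2 window there were 2 GC boxes, at -90 and -21, and 2 CAGAC matches, at -170 and -54. The Fbln1 window held 2 CAGAC matches, at -174 and -9, both read on the opposite strand, and no GC box. Of 32851 promoter windows of this length in the table, 35.7% held GGGCGG and 49.6% held CAGAC. The AP-1 motif TGANTCA, held by 7.81% of windows, was searched on both strands too and was in none of the 10 windows of the 6 genes. The same was true of the TEAD motif CATTCC, which 14.7% of windows held. The TATA box motif TATAAA, in 13.6% of windows, was not among them either. A match of letters is a description and shows no binding. CAGAC was found in genes that rose (Emilin1, Efemp2) and in genes that did not pass (Fbln1, Fbln5).

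With bleomycin 5 of the 10 genes rose, 0 fell, 4 did not pass the test and 1 (Fbn2) lay below the filter of a mean of 1 FPKM. The test was limma on log2(FPKM + 1), fitted over all 12986 genes that passed the filter, calling genes at a Benjamini-Hochberg adjusted p under 0.05. Over all tested genes, 8.59% rose and 7.69% fell. The 9 tested genes had a median log2 change of 0.85, beside -0.02 for all genes tested. At an unadjusted p under 0.05, 7 of the 9 were higher and 0 were lower, where 17.2% of all tested genes were higher and 18.1% lower. Limma called 0 of the 9 without PBS replicate 1 and 0 without PBS replicate 2, which leave the spread to the bleomycin pair, and 5 and 6 of them were then higher at an unadjusted p under 0.05, beside 8.77% and 8.94% of all genes. Neither of these fits with 1 PBS library called any gene of the whole set, so their calls cannot set the 9 apart from other genes. Fits with 1 bleomycin library take the spread from the closer PBS pair and called more of all genes. Without bleomycin replicate 1 limma called 7 of the 9 higher and 2 lower, beside 17.9% and 24.6% of all genes. Leaving out bleomycin replicate 2 gave 8 called higher and 0 called lower, beside 18.4% and 15.3%. The groups did not overlap for 7 tested genes that were higher with bleomycin and 1 that was lower, where 31.5% and 35% of all tested genes separated in those directions.

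**Figure D1:**
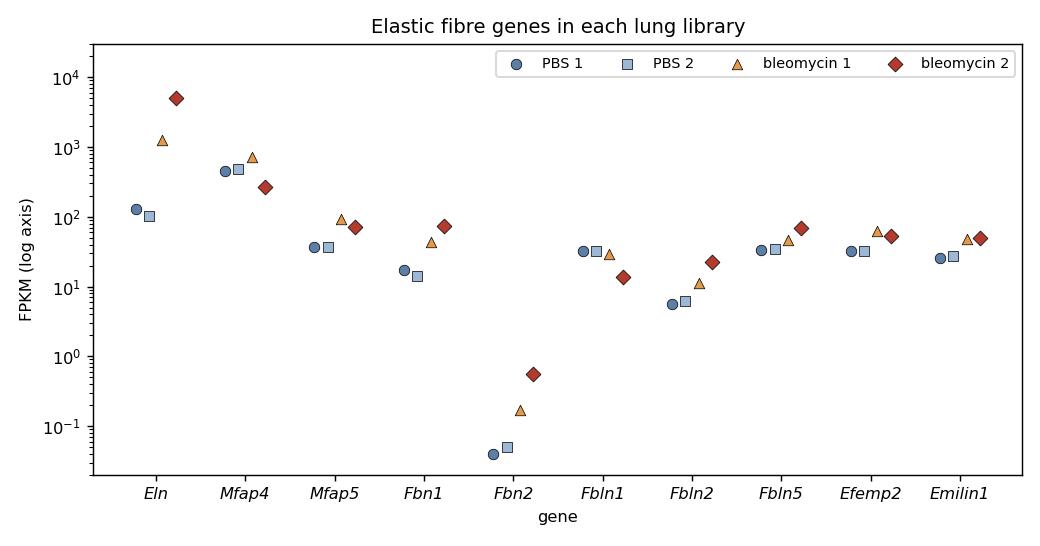
FPKM of the 10 elastic fibre genes on a log axis, 1 point per library (PBS 1 and 2 in blue, bleomycin 1 in orange, bleomycin 2 in red). Eln stood at 127.89 and 103.30 FPKM in the PBS libraries and at 1243.35 and 4989.76 FPKM with bleomycin, while Mfap4 lay above its PBS values in bleomycin 1 and below them in bleomycin 2.

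Eln, the gene of elastin itself (gene 13717, GRCm38.p6, chromosome 5, 134702595 to 134747368), changed most of the 10. It was at 127.89 FPKM in PBS 1 and 103.30 FPKM in PBS 2, against 1243.35 FPKM in bleomycin 1 and 4989.76 FPKM in bleomycin 2. Both bleomycin libraries were far above both PBS libraries, and they differed 4.01-fold from each other. The means were 116 ± 17.4 FPKM with PBS and 3117 ± 2649 FPKM with bleomycin (SD, n = 2 per group, as for all means here). The log2 change was 4.43 ± 0.67 (SE, limma adjusted p = 0.0202), rank 1 among all tested genes on this scale. Its rank was 4 with a pseudocount of 0.1 and 7 without bleomycin replicate 2, and by the fold of the means it was below Mmp12 (27.0-fold for Eln, 31.0-fold for Mmp12). By FPKM, Eln was the 521st and 698th gene of the PBS libraries, the 23rd of bleomycin 1 and the 4th of bleomycin 2. It made up 0.0262% and 0.0209% of the summed FPKM with PBS, 0.262% in bleomycin 1 and 1.08% in bleomycin 2. On the log2 scale, 30 of the 12986 tested genes (0.231%) had bleomycin libraries at least as far apart as those of Eln.

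Of the fibrillins, Fbn1 is the main one of adult tissue and the one mutated in Marfan syndrome (gene 14118, chromosome 2, 125300594 to 125506485). Its FPKM was 17.45 and 14.20 with PBS, 43.57 in bleomycin 1 and 74.45 in bleomycin 2. It rose by 1.79 ± 0.27 (log2, SE, limma adjusted p = 0.0208), from 15.8 ± 2.3 to 59 ± 21.8 FPKM. As with Eln, the higher value was that of bleomycin 2, by 1.71-fold. Fbn2, the fibrillin best known from developing tissue (gene 14119, chromosome 18, 58008623 to 58210572), was low in all 4 libraries and close to the limit of detection with PBS. It was listed at 0.04 and 0.05 FPKM with PBS, and at 0.17 FPKM in bleomycin 1 and 0.56 FPKM in bleomycin 2. At its transcript length and the estimated depths these are about 8, 9, 32 and 110 fragments. As for Fbn1, bleomycin 2 was the highest library, and the groups did not overlap. Without the filter on low values limma gave Fbn2 an adjusted p of 0.211. Fbn2 stood at 0.229% and 0.352% of the FPKM of Fbn1 with PBS and at 0.39% and 0.752% with bleomycin, so Fbn1 supplied nearly all fibrillin transcript in all 4 libraries.

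The 2 microfibril-associated genes parted. Mfap5, which encodes a small glycoprotein that binds fibrillin (gene 50530, chromosome 6, 122513584 to 122529290), was at 37.07 FPKM in both PBS libraries, 92.78 FPKM in bleomycin 1 and 71.69 FPKM in bleomycin 2. It rose by 1.12 ± 0.14 (log2, SE, limma adjusted p = 0.0142). Unlike Eln and Fbn1, its higher value was in bleomycin 1. Mfap4, a fibrinogen-related protein of elastic fibres in lung and vessels (gene 76293, chromosome 11, 61485431 to 61488708), was the most abundant of the 10 genes with PBS, at 446.51 and 484.69 FPKM. With bleomycin it was at 726.47 FPKM in library 1 and 266.95 FPKM in library 2. One bleomycin library was therefore above both PBS libraries and the other below both, and the mean did not pass (-0.08 ± 0.48, limma adjusted p = 0.922). Without bleomycin replicate 2 the log2 change of Mfap4 was 0.64 (adjusted p = 0.0101), and without bleomycin replicate 1 it was -0.80 (adjusted p = 0.00154), so the bleomycin libraries stood on opposite sides of PBS. In fits with 1 bleomycin library the spread comes from the PBS pair alone, and that library is assumed to vary like it.

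Among the 4 fibulin genes 1 rose. Efemp2 encodes fibulin-4, which brings lysyl oxidase to tropoelastin (gene 58859, chromosome 19, 5473946 to 5482520). Its level was 31.78 and 32.32 FPKM in the PBS libraries against 61.90 and 52.85 FPKM after bleomycin, and it rose by 0.82 ± 0.10 (log2, SE, limma adjusted p = 0.0145). The bleomycin libraries were close to each other. Fbln5, which encodes fibulin-5, a protein that binds tropoelastin and cell-surface integrins (gene 23876, chromosome 12, 101746565 to 101819119), was at 33.86 and 34.36 FPKM with PBS, 46.11 in bleomycin 1 and 69.66 in bleomycin 2. Both bleomycin values were above both PBS values, but the change did not pass (0.72 ± 0.20, limma adjusted p = 0.0793).

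Fbln2, a fibulin of vessel walls and of growing or injured tissue (gene 14115, chromosome 6, 91212460 to 91272540), was at 5.70 and 6.19 FPKM with PBS, 11.17 in bleomycin 1 and 22.57 in bleomycin 2. Here too the groups did not overlap and the test was not passed (1.29 ± 0.32, limma adjusted p = 0.0599). Fbln2 passed with array weights by group (adjusted p = 0.024), as did Fbln5 (adjusted p = 0.0365). Fbln1, the first fibulin described and a component of many matrices (gene 14114, chromosome 15, 85205949 to 85286294), was at 31.82 and 32.71 FPKM with PBS, 29.04 in bleomycin 1 and 13.67 in bleomycin 2. It was the only one of the 10 genes with both bleomycin values below both PBS values. Bleomycin 1 was just under PBS, bleomycin 2 was far under it, and the change did not pass (-0.66 ± 0.34, limma adjusted p = 0.239). With the spread again from the PBS pair alone, the log2 change of Fbln1 was -1.18 without bleomycin replicate 1 (limma adjusted p = 2.96e-05) and -0.15 without bleomycin replicate 2 (limma adjusted p = 0.206).

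Emilin1, which encodes a glycoprotein at the border of elastin and microfibrils that also restrains TGF-beta processing (gene 100952, chromosome 5, 30913387 to 30921279), had 25.69 and 27.73 FPKM in the PBS libraries against 48.26 and 49.29 FPKM after bleomycin. It rose by 0.85 ± 0.08 (log2, SE, limma adjusted p = 0.00952). Its bleomycin libraries lay closest together of all 10 genes, 0.03 apart on the log2 scale.

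The bleomycin libraries thus divided the 10 genes. By a difference of at least 0.5 on the log2(FPKM + 1) scale, a limit chosen after the values were seen, 4 of the 9 tested genes (Eln, Fbn1, Fbln2 and Fbln5) were higher in bleomycin 2 and 2 (Mfap4 and Fbln1) were higher in bleomycin 1. Of all tested genes, 3.19% were higher in bleomycin 2 and 9.19% in bleomycin 1 by that much. The 9 genes differed by a median of 0.76 between the bleomycin libraries and 0.10 between the PBS libraries. Fold differences of bleomycin 2 over bleomycin 1 were 4.01 for Eln, 2.02 for Fbln2, 1.71 for Fbn1 and 1.51 for Fbln5. In the other direction, bleomycin 1 exceeded bleomycin 2 by 2.72-fold for Mfap4 and 2.12-fold for Fbln1.

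**Figure D2:**
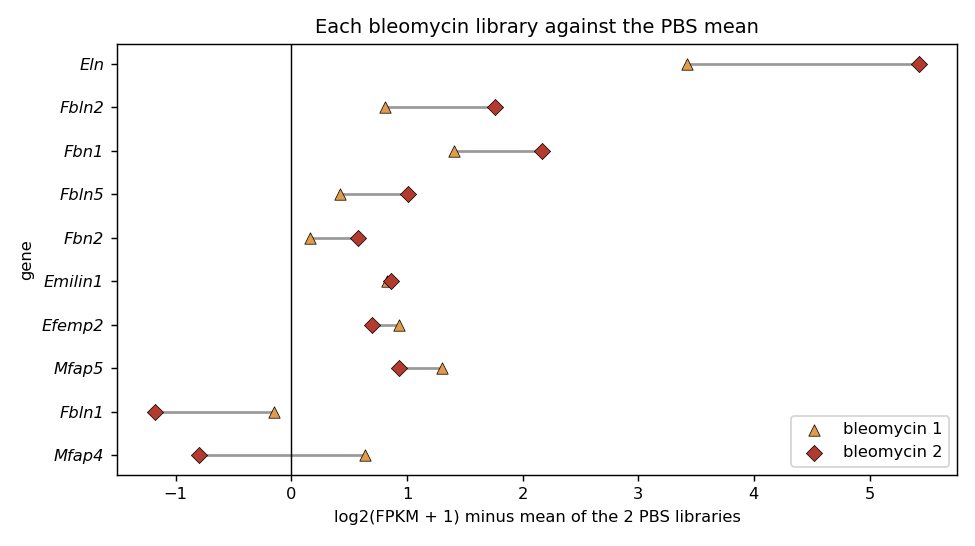
Level of each gene in bleomycin 1 (orange) and bleomycin 2 (red) as log2(FPKM + 1) less the mean of the 2 PBS libraries, marked by the vertical line at 0. Eln stood at 3.42 and 5.43, Emilin1 at 0.83 and 0.86, and Mfap4 on either side of the PBS mean at 0.64 and -0.80.

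Markers of several cell types differed between the same 2 libraries. The 8 leukocyte markers were all lower in bleomycin 2, with a summed level of 327.6 FPKM in bleomycin 1 and 198 FPKM in bleomycin 2, against 255.9 and 312.5 FPKM with PBS, and Ly6g was listed at 0 in bleomycin 2. The 7 mesothelial markers in the table were all higher in bleomycin 2, at a sum of 592.6 FPKM against 298.3 FPKM in bleomycin 1, with 361 and 290.2 FPKM with PBS. Msln and Krt19 held most of the sum in bleomycin 2, at 256.54 and 244.94 FPKM. With PBS, Msln was at 84.51 and 56.96 FPKM and Krt19 at 140.87 and 129.15 FPKM. The other mesothelial markers did not exceed both PBS libraries in bleomycin 2. Of 9 myofibroblast markers 4 were higher in bleomycin 2 and the others were lower, and the sum was 1303 FPKM in bleomycin 1 and 1560 FPKM in bleomycin 2. Acta2, the smooth muscle actin of myofibroblasts, was at 99.78 FPKM in bleomycin 1 and 168.74 FPKM in bleomycin 2. Col3a1 went the other way, at 440.48 and 402.82 FPKM, as did Tnc, at 48.16 and 36.09 FPKM. The part of any of these cell types in the split of the elastic fibre genes was not tested.

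The make-up of the elastic fibre transcripts differed in turn. With PBS, Mfap4 held 58.9% and 62.7% of the summed FPKM of the 10 genes and Eln 16.9% and 13.4%. In bleomycin 1 Eln held 54% and Mfap4 31.5%, and in bleomycin 2 Eln held 88.9% and Mfap4 4.76%. Without Eln, the other 9 genes summed to 629.92 and 669.32 FPKM with PBS, 1059.5 FPKM in bleomycin 1 and 621.69 FPKM in bleomycin 2. The rank order of the genes by FPKM was the same in both PBS libraries, led by Mfap4, Eln and Mfap5. Fbln5, Fbln1, Efemp2 and Emilin1 followed in that order with PBS, and their 8 values spanned 25.69 to 34.36 FPKM. Fbn1 ranked 8 in both PBS libraries, 7 in bleomycin 1 and 3 in bleomycin 2, while Fbln1 ranked 5, 5, 8 and 9.

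**Figure D3:**
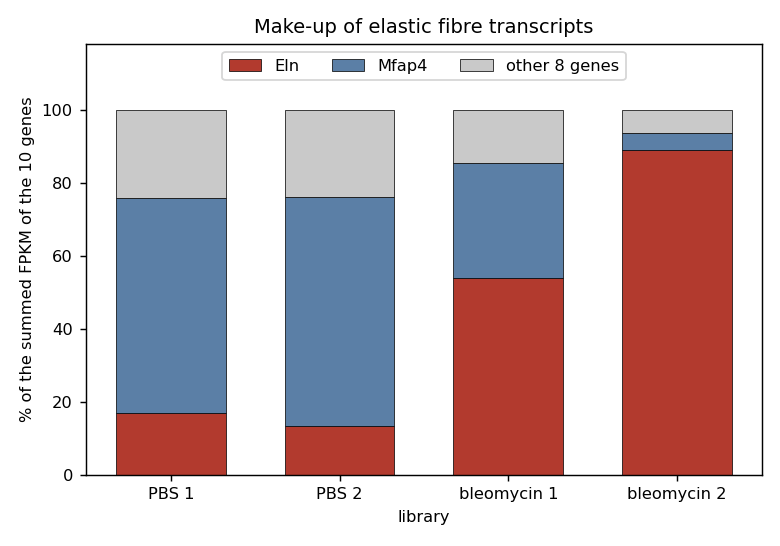
Share of the summed FPKM of the 10 elastic fibre genes held by Eln (red), Mfap4 (blue) and the other 8 genes (grey), 1 bar per library. The share of Eln was 16.9% and 13.4% with PBS, 54% in bleomycin 1 and 88.9% in bleomycin 2.

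Related genes were also compared as FPKM ratios within each library. Eln stood at 7.33 and 7.27 times the FPKM of Fbn1 with PBS, and at 28.5 and 67 times with bleomycin. The ratio of Fbln2 to Fbln1 was 0.179 and 0.189 with PBS, 0.385 in bleomycin 1 and 1.65 in bleomycin 2, where Fbln2 overtook Fbln1. Mfap5 was at 0.083 and 0.0765 of Mfap4 with PBS and at 0.128 and 0.269 with bleomycin. These 3 ratios were higher in both bleomycin libraries than in both PBS libraries. That of Fbln5 to Efemp2 was not, at 1.07 and 1.06 with PBS, 0.745 in bleomycin 1 and 1.32 in bleomycin 2. On the log2(FPKM + 1) scale the differences were 2.63 for Eln to Fbn1, 1.95 for Fbln2 to Fbln1, 1.20 for Mfap5 to Mfap4 and -0.10 for Fbln5 to Efemp2. The difference of Fbn2 to Fbn1 was -1.42 on that scale although its FPKM ratio was higher with bleomycin, because Fbn2 lies far below the added 1. An exact two-sided permutation test of 2 against 2 libraries cannot give a p below 0.333, which 4 of the 5 ratios reached (adjusted over the 5, p = 0.417), and Fbln5 to Efemp2 gave p = 1.

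The 5 tested genes with the profile most like that of Eln over the 4 libraries, by Euclidean distance on the log2 scale after setting the PBS mean to 0, were Retnla, Cldn4, Tnc, P4ha3 and S100a14, at distances of 1.74, 1.85, 1.97, 2.21 and 2.25. In bleomycin 2 they stood 3.39 to 3.70 above their PBS means, below the 5.43 of Eln. Retnla, Cldn4, P4ha3 and S100a14 all shared the order of libraries of Eln. P4ha3, a collagen prolyl hydroxylase subunit, had 0.89 and 0.73 FPKM in the PBS libraries, 8.57 in bleomycin 1 and 19.03 in bleomycin 2. Retnla, a secreted resistin-like protein, had 721.75 and 982.30 FPKM after bleomycin. Tnc, the matrix protein tenascin C, had the opposite order of the bleomycin libraries, with 48.16 and 36.09 FPKM.

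Elastin is cross-linked by lysyl oxidases. The 6 cross-linking genes held 3 that rose, 0 that fell and 3 that did not pass, with a median log2 change of 1.14. Of all tested genes, 8.59% rose and 7.69% fell. With unadjusted p-values under 0.05, 5 of the 6 stood higher and 0 stood lower, beside 17.2% and 18.1% of all tested genes. Loxl1, the family member most tied to elastic fibres, rose from 39.29 and 32.55 FPKM with PBS to 71.09 and 92.06 FPKM with bleomycin (limma adjusted p = 0.0181). Loxl2 rose by 1.17 ± 0.16 and Loxl3 by 1.13 ± 0.24 (log2, SE, limma adjusted p = 0.0168 and adjusted p = 0.0426), and Loxl3 did not pass with no filter on low values (adjusted p = 0.0846). All 6 genes were higher in bleomycin 2 than in bleomycin 1. Lox itself, named after its values were seen, was at 16.34 and 18.67 FPKM with PBS, 46.34 in bleomycin 1 and 181.19 in bleomycin 2. Its bleomycin libraries were 3.91-fold apart, beside 4.01-fold for Eln, and it did not pass (2.33 ± 0.64, limma adjusted p = 0.0728).

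Other elastic fibre and microfibril genes moved both ways. Of 24 listed, 21 were tested, and 4 of these rose while 3 fell and 14 did not pass, with a median log2 change of 0.11. Among all tested genes 8.59% rose and 7.69% fell. Among the genes of the latent TGF-beta binding protein family, 2 passed the test and moved in opposite directions. Ltbp2, which binds fibulin-5, rose from 20.23 and 17.16 FPKM to 73.89 and 144.69 FPKM (limma adjusted p = 0.0169), with the higher value in bleomycin 2 as for Eln. Ltbp4, which guides fibulin-5 and elastin onto microfibrils, fell from 206.60 and 202.86 FPKM to 82.95 and 78.06 FPKM (limma adjusted p = 0.00571). Efemp1, which encodes fibulin-3, fell by 1.06 on the log2 scale (limma adjusted p = 0.0124), while its close relative Efemp2 rose. Vcan, a large proteoglycan that binds fibrillin and fibulins, rose by 1.53 ± 0.12 (limma adjusted p = 0.00651).

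Genes on the list of elastin-degrading proteases rose more often than they fell. The list was drawn up by name, and whether each product cuts elastin was not tested. Of 11 tested, 6 rose, 1 fell and 4 did not pass, with a median log2 change of 1.41. The shares over all tested genes were 8.59% risen and 7.69% fallen. Mmp12, the macrophage elastase, was at 1.38 and 1.60 FPKM with PBS, 78.30 in bleomycin 1 and 13.94 in bleomycin 2 (3.79 ± 0.79, limma adjusted p = 0.0396), the reverse order of Eln, and it did not pass with no filter on low values (adjusted p = 0.0821). Ctsk, cathepsin K, rose from 16.23 and 16.71 FPKM to 75.16 and 122.30 FPKM (limma adjusted p = 0.00941). Mmp14 rose by 2.23 ± 0.17 and Ctsd, cathepsin D, by 1.42 ± 0.16. The 1 gene that fell was Mmp9, named after its values were seen. It had 4.51 and 5.64 FPKM in the PBS libraries against 2.09 and 2.96 FPKM after bleomycin (limma adjusted p = 0.049), and it did not pass with a pseudocount of 0.1 or 0.5 or with quantile or upper quartile scaling, and was not tested with a filter at 5 FPKM. Neutrophil elastase, Elane, was below the filter and listed at 0 in bleomycin 2.

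Elastase inhibitors were split, 2 of the 10 tested having risen and 4 fallen while 4 did not pass, with a median log2 change of -0.20. Beside these counts, 8.59% of all tested genes rose and 7.69% fell. Timp1, which inhibits matrix metalloproteinases, rose from 10.64 and 11.75 FPKM to 127.74 and 110.63 FPKM (limma adjusted p = 0.00346). The 4 that fell were Serpina1a, Serpina1b, Serpina1c and Serpina1d, mouse forms of alpha-1-antitrypsin, the plasma inhibitor of neutrophil elastase made mainly in liver. Serpina1c fell by 2.78 on the log2 scale, from 7.48 and 8.39 FPKM to 0.38 and 0.23 FPKM. These genes are near-identical copies whose fragments could be split between them, so single values are uncertain, 1 of them (Serpina1a) is also on the hepatocyte list, and they were lower in the same libraries as the hepatocyte markers given above.

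Receptors of elastic fibre proteins mostly rose, 6 of the 10 tested against 1 that fell and 3 that did not pass, with a median log2 change of 0.59. Itgb6, the epithelial integrin chain that activates TGF-beta, rose from 5.42 and 4.08 FPKM to 22.31 and 31.11 FPKM (limma adjusted p = 0.00833). Itga5 rose by 1.02 ± 0.08 and Lgals3, galectin-3, by 1.34 ± 0.15. Itga8, an integrin chain of lung fibroblasts, fell from 51.63 and 51.64 FPKM to 20.53 and 13.41 FPKM (limma adjusted p = 0.0148). In the TGF-beta list, which holds ligands, receptors, SMADs and targets of the pathway that induces Eln, 8 of 15 were called risen and 2 fallen. Another 5 did not pass, and the median log2 change was 0.48. For this list and the receptor list, the shares over all tested genes were 8.59% risen and 7.69% fallen. Ctgf rose by 1.71 ± 0.35 (log2, SE, limma adjusted p = 0.0396) and was at 273.79 FPKM in bleomycin 1 and 570.96 FPKM in bleomycin 2. Tgfbr3 fell by 1.26 on the log2 scale. Ctgf did not pass with no filter on low values (adjusted p = 0.0809).

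**Figure D4:**
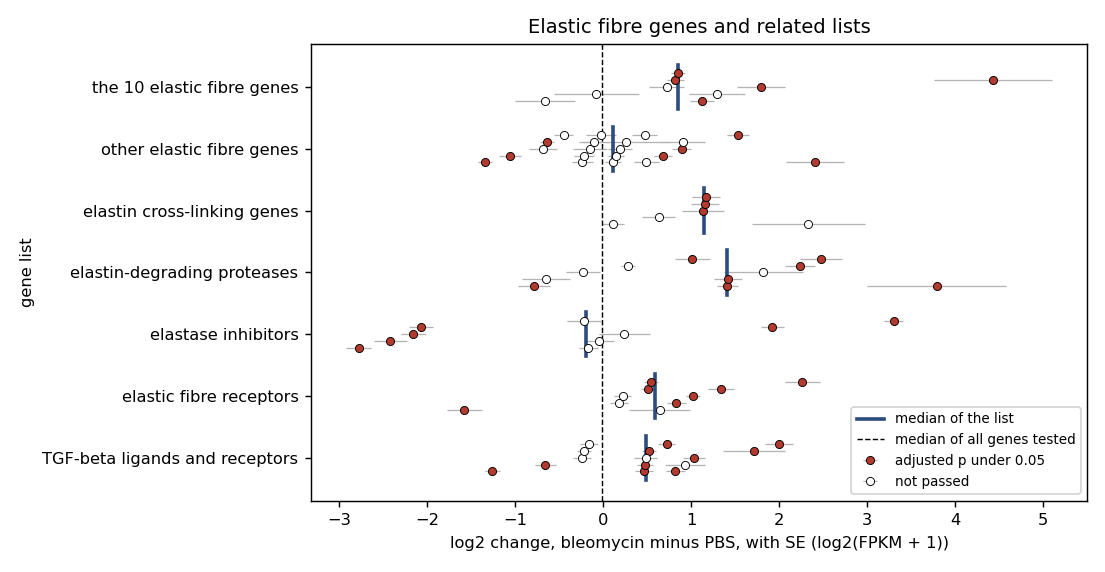
Log2 change of bleomycin minus PBS with its SE for the tested genes of the elastic fibre list and 6 related lists, filled where limma's adjusted p was under 0.05. Blue bars are list medians, from -0.20 (elastase inhibitors) to 1.41 (elastin-degrading proteases), and the dashed line is the median of all genes tested, -0.02.

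Markers of cells that make elastic fibres moved in different directions with bleomycin. Of 9 myofibroblast markers 6 rose and 0 fell, the list summing to 667.9 and 620.3 FPKM in the PBS libraries against 1303 and 1560 FPKM after bleomycin, and none was at 0. With unadjusted p-values under 0.05, 7 of these 9 stood higher and 0 stood lower, beside 17.2% and 18.1% of all tested genes. Alveolar fibroblast markers went the other way, with 0 of 9 risen and 6 fallen (with unadjusted p-values under 0.05, 8 lower and 0 higher), from sums of 3256 and 3810 FPKM to 789.5 and 564.1 FPKM. Inmt held most of the PBS sums, at 2328.41 and 2935.96 FPKM, and was at 313.60 and 167.86 FPKM after bleomycin. Of 7 smooth muscle markers 1 rose (Actg2) and 0 fell, with sums of 131 and 116.8 FPKM in the PBS libraries against 147.3 and 171 FPKM after bleomycin. Of 8 adventitial fibroblast markers 2 rose and 3 fell. For each of these marker lists, the shares over all tested genes were 8.59% risen and 7.69% fallen. The 6 cartilage markers in the table were all below the filter, with Acan at 0.00 to 0.01 FPKM and Col2a1 at 0.01 to 0.07 FPKM in the 4 libraries. The part of these cell types in the rise of the elastic fibre genes was not tested.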

How the data were processed

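RNA of lung tissue was sequenced in 4 libraries, 2 per group, grouped by their titles. Per the file headers, the single table that the authors deposited holds FPKM by gene with 1 column for each library. The submitters' processing notes list Bowtie2, HISAT, mm10 and GRCm38. Which step used which, the versions, the quantifier and any filter: not given in the sources used here. Of 17692 lines, 1 with no name (at most 0.0009% of a library's sum) was dropped, and 27 names turned into dates were restored through RefSeq accessions.

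Depth was estimated from the FPKM steps of genes whose transcripts are 300 to 1000 bases long, with GENCODE lengths. At the best depth 75.0% to 78.1% of low values fell within 0.15 of whole fragments. A fixed depth would give 30% by chance, but the depth was picked on these same values.

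The deposited FPKM were turned into log2(FPKM + 1) and compared by limma 3.58.1 under R 4.3.3 (lmFit, then eBayes with a trend, two-sided) over the 12986 genes averaging 1 FPKM or more. Fold changes on this scale understate the change of low genes. There were 2 residual and 2.76 prior degrees of freedom. The procedure was tested on simulated data in which both groups had the same spread for each gene. In the real data the bleomycin libraries lay further apart than the PBS libraries, so the simulation cannot speak to that difference. The elastic fibre genes and all lists were chosen with earlier results of these data known. Besides the 10 genes, the rule for named genes takes up to 4 called genes per list with the largest absolute log2 change, up to 2 with the highest mean where fewer than 2 were called, and the 5 genes nearest to Eln. One gene that the rule takes is not reported here. Lox, Mmp9, Serpina1d, Elane, Eif2s3y, Ly6g, Acan and Col2a1 lie outside that rule and were picked with their values known. Tables were made in Python 3.11.15 with pandas 2.3.3. Alternatives were other pseudocounts, filters, scalings and eBayes settings, array weights, a replicate block, and fits without each library in turn.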

Additional observations from a re-analysis of the deposited data

How the results depend on the processing

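The 5 rises of elastic fibre genes were called by limma under every alternative that used all 4 libraries: pseudocounts of 0.1 and 0.5, no filter or a filter at 5 FPKM, quantile, TPM and upper quartile scaling, eBayes without trend or robust, array weights by group (7 genes called) and the replicate block (6 genes called, Fbln2 being added at a limma adjusted p = 0.0435). With no filter limma gave Eln an adjusted p = 0.0497 and Fbn1 an adjusted p = 0.0493. The same replicate number was not taken as pairing, since the labels do not say that it is shared between groups. Across genes, the replicates' deviations correlated at 0.02 between PBS and bleomycin. The block moved the falls in the TGF-beta list from 2 to 1, as did no filter. The filter at 5 FPKM gave 2 rises among other elastic fibre genes, and 0 falls among proteases and inhibitors. The genes missing from these calls had means under 5 FPKM, so they were not tested with that filter. Quantile normalization and array weights each gave 5 falls among other elastic fibre genes. Falls among proteases were 0 with a pseudocount of 0.1 or 0.5, quantile or upper quartile scaling.

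Leaving out 1 library at a time gave 0 to 8 rises and 0 to 2 falls of elastic fibre genes, the 0 rises coming from limma fits with 1 PBS library, which is assumed to vary like the bleomycin pair. The ranges were 0 to 2393 rises and 0 to 3180 falls for all genes, 0 to 7 and 0 to 8 for other elastic fibre genes, 0 to 5 rises for cross-linking, 0 to 8 and 0 to 2 for proteases, 0 to 3 and 0 to 4 for inhibitors, 0 to 8 and 0 to 1 for receptors, and 0 to 10 and 0 to 3 for the TGF-beta list. The log2 change of Mfap4 ran from -0.80 to 0.64 and that of the Fbln5 to Efemp2 ratio from -0.50 to 0.30. Estimated depth limits Fbn2 most.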
